A study of Mus musculus with 8 samples.

Results

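Megakaryocyte and platelet genes were examined in haematopoietic stem cells, which replenish every kind of blood cell from the bone marrow. The 31 genes were taken by name from a list of platelet receptors, granule proteins, signalling proteins and transcription regulators, with integrins and cytokine receptors left out. A probe set with that gene symbol as its only symbol was found for 27 of them, 1 probe set each, among 21104 genes tested. Gp1bb, Gp6, Clec1b and Trpc6 had none and were not analysed here. None of the 27 was dropped by a filter on low values, since no such filter was used.

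Both groups of mice were on the C57Bl/6 background and untreated. The KO group carried Vav-Cre;BMPR-II(fl/fl), that is, both alleles of Bmpr2 floxed around exons 4 and 5 together with Vav-Cre, a recombinase transgene driven in blood cells. WT pools were made of littermates that lacked Cre. They held animals of mixed flox genotype, with 1 BMPR-II(fl/fl) and 2 BMPR-II(fl/+) mice in WT pool 1 and 3 BMPR-II(fl/+) mice in WT pool 2. WT pool 3 held 1 mouse each of BMPR-II(fl/fl), BMPR-II(fl/+) and BMPR-II(+/+), and WT pool 4 held 2 BMPR-II(fl/fl) and 1 BMPR-II(fl/+). Every sample was a pool of 3 mice, with 4 KO and 4 WT pools on 1 array each. That follows the protocols, while the design text speaks of 4 KO and 4 WT mice, and the conflict is not settled here. The p-values measure the spread between these samples. Vav-Cre was in every KO pool and in no WT pool, so the transgene and the loss of Bmpr2 cannot be told apart. No ages are stated. The comparison asks which platelet lineage transcripts differ in stem cells without this receptor for bone morphogenetic proteins.

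Megakaryocytes are the large marrow cells that shed platelets. In mouse marrow a part of the stem cells already carries transcripts of this lineage, von Willebrand factor among them. GATA1 and its cofactor FOG1, encoded by Zfpm1, together with ETS factors and NF-E2, switch on the genes of platelet receptors, granules and cytoskeleton, and the repressor GFI1B is needed as well. On the platelet the GPIb-IX-V complex catches von Willebrand factor, and agonists such as ADP and thrombin then activate receptors on the same cell.

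The gate, LSK CD9hi CD48- CD150+, was checked on its transcripts. Kit was at 10.19 ± 0.30 in KO against 10.35 ± 0.18 in WT, and Cd9 at 8.91 ± 0.65 in KO against 8.91 ± 0.62 in WT (log2 RMA signal, SD, n = 4 pools each). Ly6a was at 8.78 ± 0.16 in KO against 8.87 ± 0.38 in WT, and Slamf1 (CD150) at 7.17 ± 0.35 in KO against 6.90 ± 0.23 in WT. Cd48, whose protein the sorted cells lack, was at 5.17 ± 0.72 in KO against 4.99 ± 0.65 in WT. Pool 3 was its highest in each group, at 6.13 in KO and 5.52 in WT. As a mark of dim signal, the 1348 receptor genes for smell, pheromones and taste on the array had a median level of 3.40 and a 95th percentile of 5.07. Levels of different probe sets also depend on their probes, so this value marks a dim range and not absence. Cd48 exceeded it in 4 of the 8 pools. Bmpr2 itself was at 6.87 ± 0.26 in KO against 7.65 ± 0.44 in WT, a difference of -0.79 (SE 0.21, exact permutation p = 0.0571, limma adjusted p = 0.967). A probe set can cover exons outside the deleted part, so it checks the labels only in part. KO pool 1, at 7.22, lay above WT pool 3, at 7.05.

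Most platelet genes were slightly higher in KO, and none passed the test. Of the 27 measured, 21 were higher and 6 lower in KO, against 48.7% of all genes tested that were higher. The median difference over the 27 was 0.14 on the log2 scale, against -0.0043 over all genes tested. The 27 were brighter, with a median level of 7.94 against 5.80 over all genes. Among genes above the median level, the median difference was 0.18 for the 21 members there and 0.03 for all genes there. The fit called 0 of the 27 and 0 of all genes (0.0% in each direction) at an adjusted p under 0.05. The limma adjusted p of the 27 lay between 0.967 and 0.995. Before adjustment 3 members were higher and 1 lower at a limma p under 0.05, against 2.3% and 2.25% of all genes (4.55% in either direction). The size of the shift depended on which pool was left out. When KO pool 3 was dropped, 16 of 27 were higher, against 48.6% of all genes, and the median difference fell to 0.03. That fit kept WT pool 3, whose average deviation from the genes' means was also positive (0.09, against 0.28 in KO pool 3). Dropping WT pool 3 instead gave 21 higher and a median of 0.16. In these average deviations each KO pool lay above the WT pool of its number, though the labels do not pair them. Without KO pool 2, 22 were higher, against 48.3%, and the median was 0.20. These samples are sorted populations measured in bulk, in which fewer cells of a type and less RNA per cell cannot be told apart.

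**Figure D1:**
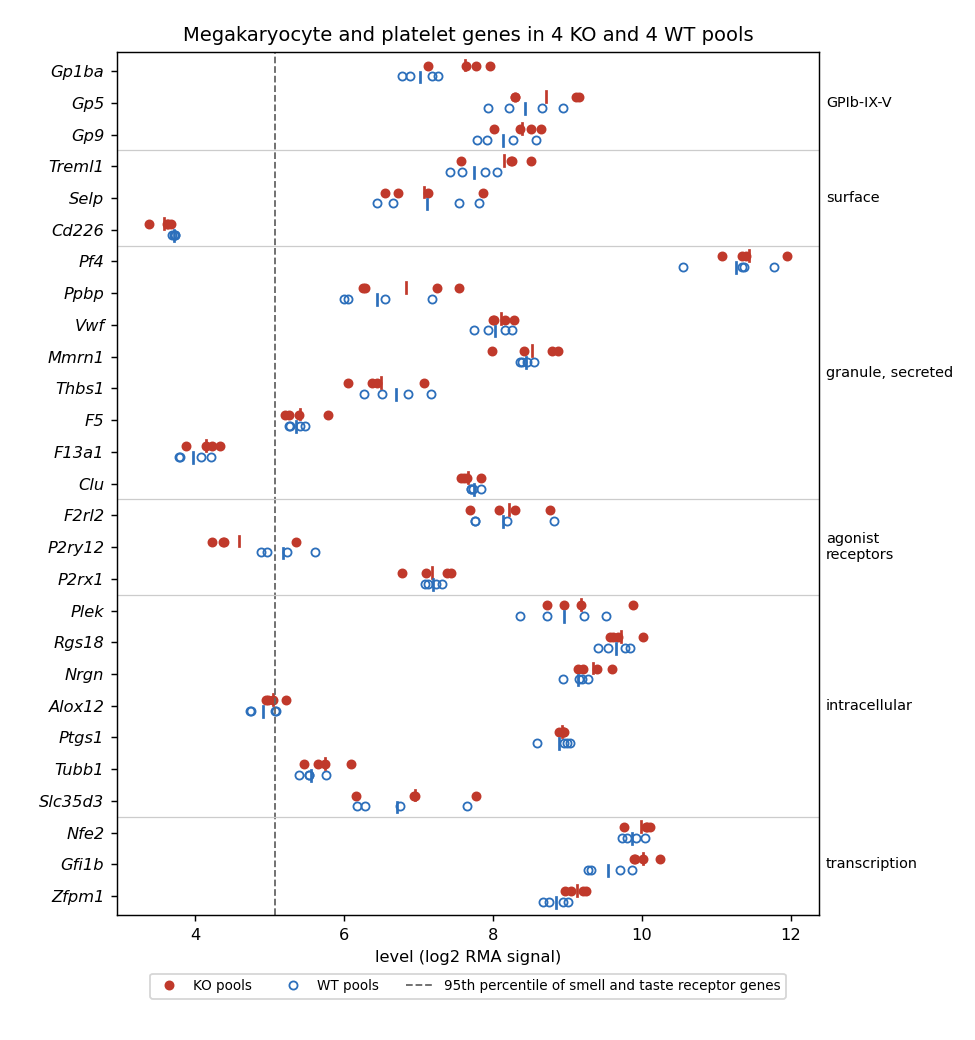
Level of each measured megakaryocyte and platelet gene (log2 RMA signal) in every pool, with KO pools as filled red points above WT pools as open blue points, short vertical lines at the group means, and a dashed line at the 95th percentile of smell and taste receptor genes (5.07). Points are compared within a gene and not between genes. The KO and WT points interleave for nearly all genes, and they separate for Gfi1b and, below the dashed line, for Cd226.

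The GPIb-IX-V complex is the platelet receptor for von Willebrand factor, and its 3 measured subunit genes were all higher in KO. Gp1ba encodes the chain that binds von Willebrand factor. In the order of pools 1 to 4, used below too, it was at 7.64, 7.13, 7.78 and 7.96 in KO and at 6.78, 7.18, 6.88 and 7.26 in WT. KO pools 1, 3 and 4 lay above every WT pool, and KO pool 2 lay below WT pools 2 and 4. The difference of 0.60 (SE 0.18, 95% interval 0.21 to 1.00 without adjustment) is 1.52-fold and had the largest moderated t of the 27 genes. Its exact permutation p was 0.0857 and its limma adjusted p 0.967. Without KO pool 2 the difference was 0.77, and without KO pool 4 it was 0.49. Gp5, the subunit that thrombin cleaves, was at 8.29, 8.29, 9.15 and 9.12 in KO pools and 8.21, 7.93, 8.95 and 8.66 in WT pools. KO pools 3 and 4 and WT pool 3 were the high ones, and the groups overlapped. Gp9, a small subunit needed for surface display of the complex, was at 8.50, 8.65, 8.37 and 8.02 in KO pools and 8.27, 7.79, 8.58 and 7.92 in WT pools. The differences were 0.28 (SE 0.26) for Gp5 and 0.25 (SE 0.19) for Gp9, each with a limma adjusted p of 0.967. Without WT pool 2, the lowest for both, they were 0.11 and 0.13.

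The upstream sequences of Gp1ba and Gp5 are shown because each holds several letter matches to GATA sites and 1 to an ETS site, the factor classes known for this lineage. The sequences are the 250 bases before the annotated start in RefSeq, assembly GRCm38.p6, read 5′ to 3′ on the gene's strand, at chr11:70638872-70639121 (plus strand) for Gp1ba and chr16:30310782-30311031 (minus strand) for Gp5. Capitals mark matches on either strand to the GATA motifs AGATAA or TGATAA or AGATAG or TGATAG, the ETS motifs CCGGAA or AGGAAG, and the NF-E2 and AP-1 type motif TGACTCA.
Gp1ba: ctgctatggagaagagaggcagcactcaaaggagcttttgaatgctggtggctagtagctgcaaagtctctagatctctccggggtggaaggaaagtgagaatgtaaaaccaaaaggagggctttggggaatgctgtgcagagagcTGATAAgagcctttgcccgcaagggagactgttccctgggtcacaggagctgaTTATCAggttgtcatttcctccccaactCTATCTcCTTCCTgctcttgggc
Gp5: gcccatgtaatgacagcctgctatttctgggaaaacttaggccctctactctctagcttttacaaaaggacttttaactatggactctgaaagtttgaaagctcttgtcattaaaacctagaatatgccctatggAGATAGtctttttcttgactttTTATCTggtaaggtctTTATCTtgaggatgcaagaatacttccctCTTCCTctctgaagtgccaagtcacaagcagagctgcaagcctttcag
In Gp1ba the GATA matches begin at -104, -51 and -23 and the ETS match at -16 relative to the start, and in Gp5 they begin at -115, -93 and -77 with the ETS match at -48. The RefSeq table held windows for 25 of the 31 genes, 26 windows in all. A GATA match stood in 34.6% of these windows and in 26.5% of all 32851 windows of the table. An ETS match stood in 50.0% and 38.2%, both in 15.4% and 9.16%, and TGACTCA in 3.85% and 4.46%. The windows of P2rx1 (2 GATA and 2 ETS matches) and F2rl2 (1 of each), not shown, held both classes too. Their KO to WT differences were -0.02 and 0.08. The windows of Treml1, Zfpm1, Ppbp, Nrgn, Slc35d3, Plek and Alox12 held neither class, and these genes were also higher in KO. A link between matches and differences was not tested. In these classes no motif contains another, and a match is a run of letters, not a bound site.

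Among the other surface molecules the values went in different directions. Treml1, a receptor of platelet granules that moves to the surface on activation, was at 8.26, 7.57, 8.25 and 8.51 in KO pools and 7.42, 7.59, 8.06 and 7.90 in WT pools. KO pools 1, 3 and 4 lay above every WT pool and KO pool 2 lay below 3 of the 4, the same pools as for Gp1ba standing apart. The difference was 0.41 (SE 0.20, exact permutation p = 0.171, limma adjusted p = 0.967). Selp encodes P-selectin, which binds leukocytes. It was at 7.87, 6.73, 7.13 and 6.55 in KO pools and 7.81, 7.55, 6.44 and 6.65 in WT pools. Pool 1 of each group was its highest, and the group means of 7.07 ± 0.58 in KO against 7.11 ± 0.67 in WT (SD, n = 4) differed by far less than the pools did. Cd226, an adhesion receptor of platelets and lymphocytes, was in the dim range in all pools. It was at 3.37, 3.62, 3.67 and 3.62 in KO pools and 3.73, 3.71, 3.72 and 3.68 in WT pools. Its 4 KO pools all lay below its 4 WT pools, with a difference of -0.14 (SE 0.10, limma adjusted p = 0.967). The gap between the groups was smaller than the spread among the KO pools.

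Granule and secreted proteins made up 8 of the measured genes, 6 higher and 2 lower in KO, with a median difference of 0.08. Pf4, the chemokine platelet factor 4, was at 11.08, 11.35, 11.95 and 11.39 in KO pools and 10.55, 11.38, 11.77 and 11.35 in WT pools. WT pool 1 was the lowest and the pools numbered 3 the highest, and without WT pool 1 the difference of 0.18 (SE 0.25) was -0.06. Ppbp, the precursor of another platelet chemokine, was at 6.26, 6.28, 7.55 and 7.25 in KO pools and 6.04, 6.00, 7.18 and 6.54 in WT pools. Pools 3 and 4 were the high ones for Ppbp in both groups. Its difference of 0.39 (SE 0.33) was smaller than the gap between high and low pools within either group. It was 0.15 without KO pool 3. Vwf, which encodes von Willebrand factor and marks stem cells with a platelet bias in mouse, was at 8.16, 8.02, 8.28 and 7.99 in KO pools and 7.75, 8.16, 8.25 and 7.94 in WT pools. The groups overlapped throughout, with a difference of 0.09 and a 95% interval from -0.20 to 0.38 on the log2 scale. F13a1, the A chain of clotting factor XIII, was in the dim range, at 3.88, 4.34, 4.23 and 4.14 in KO pools and 3.78, 4.21, 4.08 and 3.79 in WT pools. For the other members of the group the KO and WT pools overlapped. Mmrn1, which carries factor V in the granule, was at 8.52 ± 0.41 in KO against 8.44 ± 0.09 in WT, and F5, factor V itself, at 5.41 ± 0.26 in KO against 5.35 ± 0.11 in WT (SD, n = 4). Thbs1, the adhesive protein thrombospondin 1, was at 6.49 ± 0.43 in KO against 6.70 ± 0.40 in WT, a difference of -0.21 (SE 0.23). Clu, the chaperone clusterin, was at 7.67 ± 0.12 in KO against 7.75 ± 0.06 in WT, a difference of -0.08 (SE 0.10). For Mmrn1 the KO pools spanned 7.99 to 8.87 and the WT pools 8.37 to 8.56.

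Of the agonist receptors, P2ry12 had the largest difference downward among the 27 genes. It encodes the platelet receptor for ADP that clopidogrel blocks. It was at 4.39, 5.35, 4.37 and 4.22 in KO pools and 4.89, 5.24, 4.97 and 5.61 in WT pools. KO pools 1, 3 and 4 were lower than all WT pools, while KO pool 2 exceeded WT pools 1, 2 and 3. The difference was -0.59 (SE 0.24, 1.51-fold lower, exact permutation p = 0.114, limma adjusted p = 0.967). It was -0.85 without KO pool 2. Only 3 of its 8 values, KO pool 2, WT pool 2 and WT pool 4, exceeded the dim range, where RMA compresses differences. F2rl2, the thrombin receptor subunit PAR3, was at 8.30, 7.70, 8.77 and 8.09 in KO pools and 7.76, 7.76, 8.82 and 8.19 in WT pools. Pool 3 was the highest of each group, and the difference was 0.08 (SE 0.26). P2rx1, an ATP-gated cation channel, was at 7.17 ± 0.30 in KO against 7.19 ± 0.10 in WT (SD, n = 4).

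The window upstream of P2ry12 is shown as that of the gene with the largest downward difference, with the same reading direction, assembly and capitals as above, at chr3:59262986-59263235 (minus strand).
P2ry12: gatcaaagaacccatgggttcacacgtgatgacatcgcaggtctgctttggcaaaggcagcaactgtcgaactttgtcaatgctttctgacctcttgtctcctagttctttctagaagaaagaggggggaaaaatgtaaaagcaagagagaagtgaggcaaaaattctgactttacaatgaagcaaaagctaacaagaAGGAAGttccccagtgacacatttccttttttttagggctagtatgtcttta
It holds 1 ETS match, at -52, and no GATA letters of the 4 searched.

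All 7 genes of intracellular enzymes, signalling and cytoskeleton were higher in KO by small amounts, with differences between 0.04 and 0.25. The differences of Plek (-0.0025), Rgs18 (-0.0232) and Slc35d3 (-0.0263) were below 0 without KO pool 3, and that of Ptgs1 was -0.0578 without WT pool 2 and -0.0172 after a further quantile normalization. Nrgn, a calmodulin-binding protein, was at 9.21, 9.15, 9.60 and 9.40 in KO pools and 9.28, 9.16, 9.20 and 8.94 in WT pools. KO pools 3 and 4 lay above every WT pool, and the difference of 0.19 (SE 0.13) was 0.11 without KO pool 3. Tubb1, the tubulin of the platelet's marginal band, was at 5.75, 5.46, 6.10 and 5.65 in KO pools and 5.75, 5.53, 5.39 and 5.53 in WT pools. KO pool 3 was the single value above all WT pools, and the difference of 0.19 (SE 0.14) was 0.07 without it. Slc35d3, needed for dense granules in mouse, was at 6.96 ± 0.66 in KO against 6.71 ± 0.67 in WT (SD, n = 4). Its pools spanned 6.15 to 7.77 in KO and 6.17 to 7.65 in WT, with pool 3 the highest in both. Plek, which encodes the protein kinase C substrate pleckstrin, was at 9.19 ± 0.50 in KO against 8.96 ± 0.52 in WT, again with pool 3 the highest of each group. Rgs18, which dampens G protein signals, was at 9.72 ± 0.20 in KO against 9.65 ± 0.20 in WT. Ptgs1, the cyclooxygenase that aspirin blocks, was at 8.93 ± 0.03 in KO against 8.89 ± 0.20 in WT. Alox12, the platelet 12-lipoxygenase, was at the edge of the dim range, at 5.04 ± 0.12 in KO against 4.91 ± 0.19 in WT.

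The 3 transcription regulators were all higher in KO. Gfi1b encodes a repressor required in mouse for megakaryocyte and red cell formation. It was at 9.89, 10.01, 9.91 and 10.24 in KO pools and 9.70, 9.31, 9.87 and 9.27 in WT pools. Every KO pool lay above every WT pool, with KO pool 1 and WT pool 3 almost level. The difference was 0.47 (SE 0.15, 1.39-fold, 95% interval 0.14 to 0.81 without adjustment). The exact permutation p was 0.0286, the smallest that 4 against 4 pools can give, and the limma adjusted p was 0.967. Groups that did not overlap were found for 2 of the 27 genes, Gfi1b and Cd226, against 2.58% of all genes tested (1.09% with KO higher and 1.5% with KO lower). Without KO pool 2 they were found for 6 of the 27, Gp1ba, Treml1, Nfe2, Gfi1b, Cd226 and P2ry12, against 7.16% of all genes. KO pool 2 was the pool whose removal gave the highest count for the platelet genes (2 to 6). The share of all genes was not picked that way, so the 2 are not a like comparison. After a further quantile normalization the groups of Gfi1b and Cd226 overlapped. Zfpm1 was at 8.97, 9.05, 9.25 and 9.22 in KO pools and 8.76, 8.68, 9.01 and 8.94 in WT pools. Only KO pool 1 lay below a WT pool, and the difference was 0.28 (SE 0.12, exact permutation p = 0.0571, limma adjusted p = 0.967). Nfe2, a subunit of the factor that drives the last steps toward platelet release, was at 10.06, 9.76, 10.06 and 10.10 in KO pools and 10.04, 9.74, 9.92 and 9.80 in WT pools. KO pools 1, 3 and 4 lay above all WT pools, and the difference was 0.12 (SE 0.12).

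The window upstream of Gfi1b, the gene above the dim range whose groups did not overlap, lies at chr2:28621983-28622232 (minus strand) and is given with the same conventions.
Gfi1b: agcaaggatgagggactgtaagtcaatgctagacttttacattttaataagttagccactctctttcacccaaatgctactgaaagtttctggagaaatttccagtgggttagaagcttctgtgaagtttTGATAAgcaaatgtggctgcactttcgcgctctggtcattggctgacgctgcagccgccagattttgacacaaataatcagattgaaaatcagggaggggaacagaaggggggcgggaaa
It holds a single GATA match, at -120, and no ETS letters of the 2 searched.

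**Figure D2:**
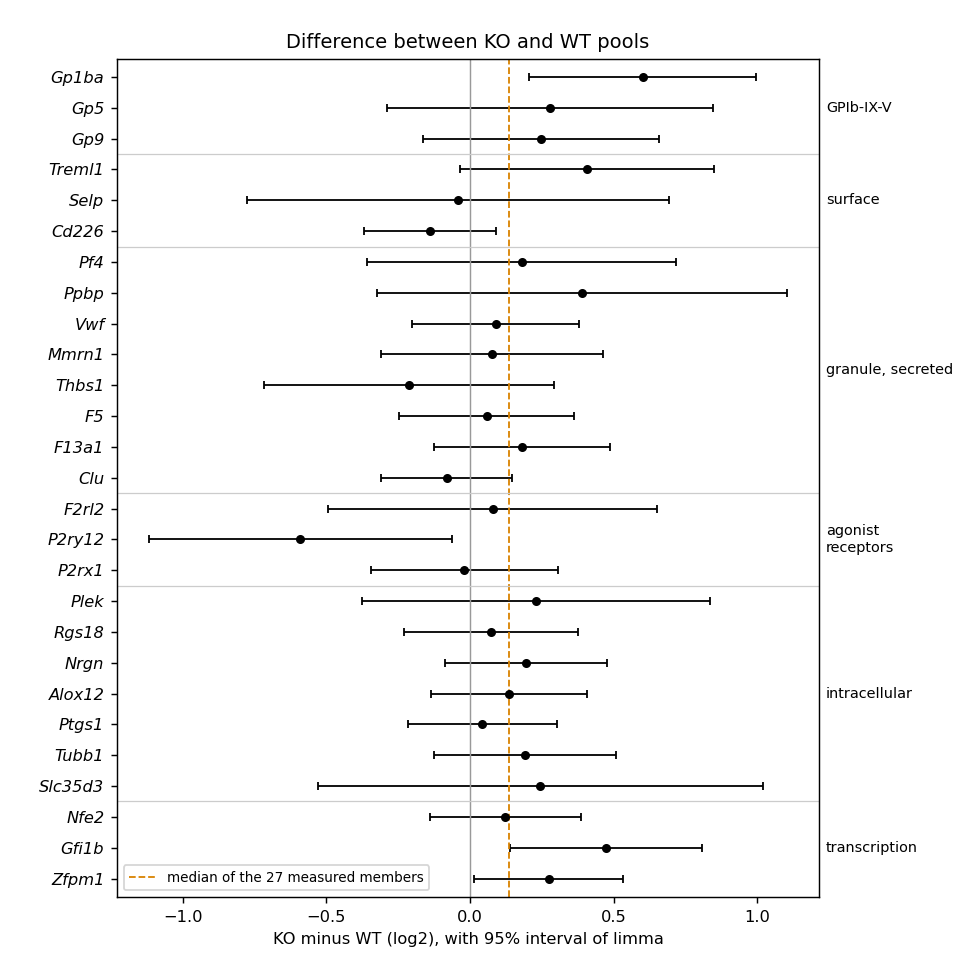
Difference between KO and WT pools (KO minus WT, log2) for each measured member, with the 95% interval of limma, not adjusted for the number of genes, and an orange dashed line at the members' median of 0.14. The intervals of Gp1ba, Gfi1b and Zfpm1 lie above 0 and that of P2ry12 below 0, while the other 23 cross it.

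Variation among pools was larger than the KO to WT difference for most of these genes. The within-group SD, pooled over both groups, had a median of 0.24 over the 27 genes, against 0.19 over all genes tested. It exceeded the 90th percentile of all genes, 0.34, for 10 of the 27. The range over the 8 pools was largest for Slc35d3 at 1.62, Ppbp at 1.55, Plek at 1.53 and Selp at 1.43 on the log2 scale, and smallest for Clu at 0.27. For none of these 5 genes did the KO and WT means differ by more than 0.39.

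KO pool 3 was the highest of the 8 for 11 of the 27 genes, against 13.2% of all genes, and the lowest for 0. WT pools 1 and 2 were the lowest for 6 genes each, against 10.8% and 17.2% of all genes. Pools 3 of both groups were the 2 highest for 7 genes, Pf4, Vwf, Clu, F2rl2, Plek, Rgs18 and Slc35d3, against 6.38% of all genes. Selp and Thbs1 had a different layout, with pools 1 of both groups as the 2 highest, against 4.45% of all genes. The labels do not say that equal numbers mark a shared day or litter.

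**Figure D3:**
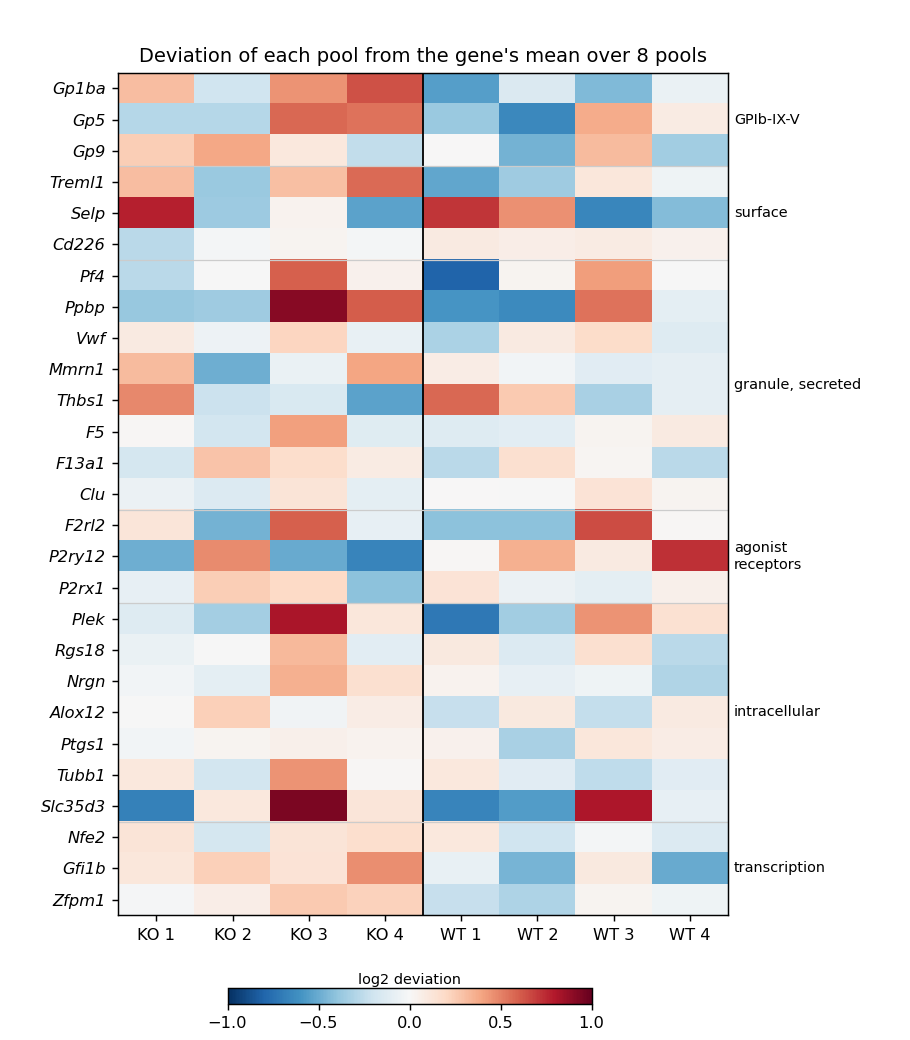
Deviation of each pool (columns, KO pools left of WT pools) from the gene's mean over all 8 pools, on the log2 scale, for the 27 measured members in rows by role. KO pool 3 is above the gene's mean for 23 of 27 genes, WT pool 3 for 18 and WT pool 2 for 8, while Selp and Thbs1 are high in KO pool 1 and WT pool 1.

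Averaged over the 27 genes, the deviation from each gene's mean was 0.002, -0.07, 0.28 and 0.05 in the KO pools, against -0.14, -0.14, 0.09 and -0.06 in the WT pools. KO pool 3 stood above all others and WT pool 3 above KO pools 1, 2 and 4. 2 further lists were set beside this layout. For 25 genes of G2 and M phase the mean deviation was -0.03, -0.01, 0.45 and 0.17 in KO pools and -0.37, -0.48, 0.25 and 0.01 in WT pools, and all 25 were higher in KO. For 16 genes of stem cell identity it was 0.15, 0.006, -0.23 and 0.002 in KO pools and 0.16, 0.0002, -0.15 and 0.07 in WT pools. The stem cell list was thus lowest in both pools where the platelet genes were highest. The part of cycling or of stem cell content in the platelet gene levels was not tested.

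Markers of other marrow lineages were set beside these values. Of all genes tested, 63.6% were above the dim range and 48.7% were higher in KO. Of 23 erythroid genes 17 were above the dim range and 16 were higher in KO, with mean levels between 6.24 and 6.58 over KO pools and between 6.10 and 6.48 over WT pools. The red cell membrane genes Rhag, Rhd and Kel were in the dim range. Of 19 neutrophil genes 14 were above the dim range and 15 were higher in KO, with mean levels of 5.51 to 6.40 over KO pools and 5.22 to 6.23 over WT pools, and Ly6g, Cxcr2 and Retnlg were dim. The neutrophil list was highest in KO pool 2, where the platelet genes averaged below their mean. Of 18 monocyte and macrophage genes, F13a1 among them, 10 were above the dim range and 12 were higher in KO, with mean levels of 5.28 to 5.76 over KO pools and 5.26 to 5.62 over WT pools. Csf1r and Emr1 were dim, and KO pool 3 was the highest for that list. Fewer genes were above the dim range in the B cell list (5 of 11), the T and NK cell list (4 of 14) and the mast cell and basophil list (2 of 11). In KO 5 of 11, 8 of 14 and 5 of 11 of their genes were higher. Of 17 endothelial and stromal genes 11 were above the dim range and 9 were higher in KO. The part of these cells in the platelet gene values was not tested.

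**Figure D4:**
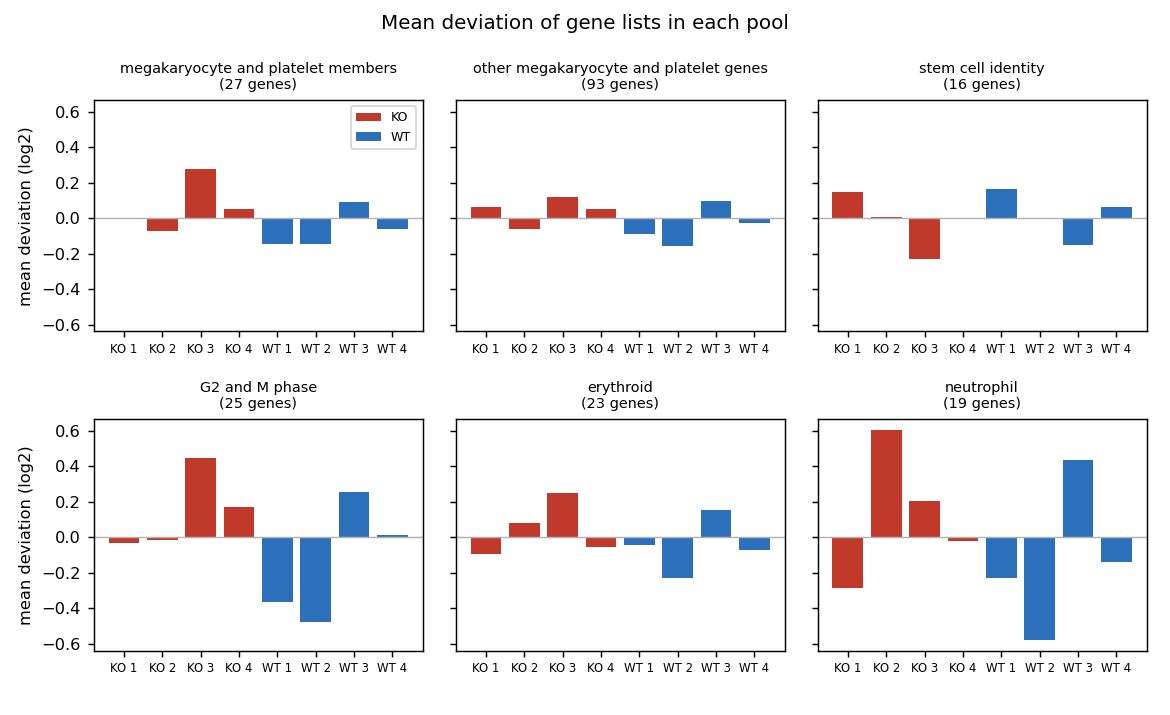
Mean deviation from each gene's mean (log2) per pool, as bars from 0 with KO pools in red left of WT pools in blue, for the 27 platelet genes and 5 other lists. The platelet and the G2 and M phase lists are highest in KO pool 3 (0.28 and 0.45), and the stem cell identity list is lowest there (-0.23).

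A wider list of 95 further genes of megakaryocytes and platelets, 93 of them measured, leaned the same way. Of these 60 were higher and 33 lower in KO, against the same 48.7% of all genes. The median difference was 0.08, and 0 were called (limma adjusted p under 0.05). These genes too were brighter, with a median level of 7.58 against 5.80 over all genes. Among genes above the median level, the median difference was 0.10 for the list's genes there and 0.03 for all genes there. Before adjustment 8 of the 93 were higher and 3 lower at a limma p under 0.05, against 2.3% and 2.25% of all genes. With KO pool 3 or WT pool 2 left out the list's median difference was 0.04. With KO pool 2 or WT pool 3 left out it was 0.12. The lineage's master regulator Gata1 was at 7.47, 7.88, 7.71 and 7.57 in KO pools and 6.55, 6.75, 7.79 and 7.06 in WT pools. WT pool 3 lay among the KO pools and the other WT pools below them, with a difference of 0.62 (SE 0.23, exact permutation p = 0.114, limma adjusted p = 0.967). Itga2b and Itgb3 encode the chains of the fibrinogen receptor. Itga2b was at 8.64 ± 0.33 in KO against 8.57 ± 0.52 in WT, and Itgb3 at 7.73 ± 0.20 in KO against 7.43 ± 0.39 in WT (SD, n = 4). The factors Runx1 and Fli1 differed by -0.03 (SE 0.11) and 0.15 (SE 0.14).

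The 4 genes of that list with the largest statistics were Parvb, Jam3, Fcer1g and Fyb. Parvb, an adaptor at integrin adhesions, was at 5.87, 5.90, 6.38 and 6.45 in KO pools and 5.60, 5.45, 5.42 and 5.48 in WT pools. Jam3, a junctional adhesion molecule, was at 5.84, 5.81, 5.78 and 5.81 in KO pools and 6.36, 6.23, 6.10 and 6.04 in WT pools. Fcer1g, the signalling chain that partners the collagen receptor glycoprotein VI, was at 7.47, 7.07, 7.37 and 7.55 in KO pools and 7.92, 7.61, 7.76 and 7.85 in WT pools. The KO and WT pools did not overlap for these 3 genes, nor for Mef2c (higher) and Slc2a3 (lower), named for that reason after their values were seen. That makes 2 higher and 3 lower of the 93, against 1.09% and 1.5% of all genes. Fyb, an adaptor of integrin activation, was at 8.36 ± 0.18 in KO against 7.91 ± 0.23 in WT (SD, n = 4). The differences were 0.66 for Parvb, -0.37 for Jam3, -0.42 for Fcer1g and 0.45 for Fyb, each with a limma adjusted p of 0.967.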

How the data were processed

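Gene expression was measured on Affymetrix arrays, 1 per pool of sorted stem cells. Per the labels' protocols, cDNA was amplified from very small amounts of RNA by SPIA. Per the submitters' processing notes, the values were made with RMA in Affymetrix Expression Console 1.3, so the deposited values are log2 levels (28853 probe sets, 1.47 to 13.3). RMA makes the arrays' distributions more alike and compresses differences of dim probe sets. The deposited arrays still differed somewhat, with medians from 5.58 (KO pool 4) to 5.69 (WT pool 2). WT pool 2 also had the lowest upper quartile, 7.10, against 7.26 in KO pool 1, the highest. No source used here names the genome build behind the probe sets. Beside them stands the authors' comparison of KO with WT, whose deposited log2 ratio matched the group means' difference within 1.75e-15. Their deposited fold was not used, and their deposited p-value, not adjusted, served only as an alternative.

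Groups came from the sample titles, with 4 pools each. The labels call them biological replicates. Probe sets with exactly 1 symbol (23586) were kept, the brightest per gene. KO was compared with WT over 21104 genes with limma 3.58.1 in R 4.3.3 (lmFit, eBayes, no covariate), with Benjamini-Hochberg adjustment over all genes and a threshold of 0.05. Each log2 difference is KO minus WT and has limma's SE. An exact 2-sided permutation test over 70 assignments was run for each of the 27 measured genes and for the other genes named with it, with no adjustment. Its smallest p is 0.0286. The code was tested on simulated data. No detection call is in the files, so the 95th percentile of receptor genes for smell, pheromones and taste served as a mark of dim signal. The members, lists, tests and alternatives were chosen with earlier results of these data known. Named genes are all 31 members, Bmpr2, 6 lineage genes (1 not reported here) and the 4 further list genes with the largest statistics. Values per pool are given for 12 members set by name (9 of them measured) and up to 2 per role with the largest statistics. Gate markers are also named, and the dim markers of other lineages and Mef2c and Slc2a3 were picked after their values were seen. The number of arrays limits the precision, and no depth applies.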

Additional observations from a re-analysis of the deposited data

Results flagged for a closer look

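For 4 of the 54 groups of 4 pools examined (27 genes in KO and in WT), 1 pool stood far from the other 3, with a gap beyond Dixon's 95% critical share of the group's range. Chance gives about 1 in 20 such groups. P2ry12 was at 5.35 in KO pool 2, against 4.22 to 4.39 in the other KO pools. Nfe2 was at 9.76 in KO pool 2, against 10.06 to 10.10 in the other KO pools. Cd226 was at 3.37 in KO pool 1, against 3.62 to 3.67 in the other KO pools. Ptgs1 was at 8.59 in WT pool 2, against 8.96 to 9.03 in the other WT pools. KO pool 2 also lay lowest of the KO pools for Gp1ba, at 7.13, and for Treml1, at 7.57. Without KO pool 2 the groups did not overlap for 6 of the 27 genes, against 7.16% of all genes tested. These were Gp1ba, Treml1, Cd226, P2ry12, Nfe2 and Gfi1b. KO pool 2 was singled out from these same values, and its removal gave the highest count (2 to 6). The share of all genes is therefore not a like comparison.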

How the results depend on the processing

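Under 10 other settings and with each of the 8 pools left out, none of the platelet genes tested passed (25 were tested above the 25th percentile of level, 21 above the median and 27 elsewhere), and the lowest limma adjusted p in any of them was 0.583. The count of genes higher in KO was 16 to 22 with a pool left out, and the median difference 0.03 to 0.20. The direction held for 16 of the 27 in every setting in which the gene was tested, Gp1ba, Gfi1b, Zfpm1, Treml1 and P2ry12 among them. Groups that did not overlap numbered 1 with arrays centred on their medians, 1 among genes above the 25th percentile or above the median level, where Cd226 was not tested, 0 after a further quantile normalization, and 2 to 6 with a pool left out. With a pool left out, the difference moved by less than 1.5 times for Gp1ba, Treml1, P2ry12, Gfi1b and Zfpm1 and by more for the others. The sign turned for Selp with array weights (0.0505), for P2rx1 with centred arrays (0.0162) and for Ptgs1 after quantile normalization (-0.0172). Centring and quantile normalization moved the median of all genes to 0.03 and 0.0073.

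With a pool left out, these differences ran across 0, and the cause was not tested. Without KO pool 3 the low ends were -0.0680 for F5, -0.11 for F2rl2, -0.0025 for Plek, -0.0232 for Rgs18 and -0.0263 for Slc35d3. Their high ends were 0.13, 0.31, 0.42, 0.14 and 0.56. Without WT pool 1, Pf4 was at -0.0572 and Vwf at -0.0021, with high ends of 0.35 and 0.16. Selp ran from -0.31 to 0.19, Mmrn1 from -0.0415 (without KO pool 4) to 0.25, P2rx1 from -0.11 to 0.11 and Ptgs1 from -0.0578 (without WT pool 2) to 0.0892.

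With the replicate number as a block, 2 of all genes and 0 of the platelet genes passed. Same-numbered pools' deviations correlated at 0.287, 0.213, 0.305 and 0.062 across genes, each pool best with its own number, a hint from the data and not the design. The number of arrays and the dim signal of Cd226, F13a1, P2ry12 and Alox12 limit the precision.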

Other observations

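Among the 31 genes, Selp and F5 are neighbouring protein-coding genes on chromosome 1, and Ppbp and Pf4 on chromosome 5, in the gene order of GRCm38.p6. Selp and F5 were laid out differently over the pools, with Selp highest in KO pool 1 (7.87) and F5 in KO pool 3 (5.79). Ppbp and Pf4 both had their highest value in KO pool 3, at 7.55 and 11.95.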
